A study of Mus musculus with 4 samples.

Results

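The 10 genes described here mark alveolar type 1 cells: Ager, Hopx, Pdpn, Aqp5, Cav1, Rtkn2, Akap5, Clic5, Emp2 and Spock2. Chromatin at these genes was examined by ATAC-seq, in which a transposase cuts open DNA and leaves sequencing adapters there. The genes were taken as a list, and the authors' merged regions that overlapped a gene or lay within 10 kb of it in mm10 were counted for it, which gave 56 of the 61972 merged regions of the study. The samples were lung tumours of 4 mice of the C57B6J strain, all 55 weeks old. The 2 KrasLA1;Dicer1S2D mice carried KrasLA1/+ and Dicer1S2D/+ and the 2 KrasLA1 mice carried KrasLA1/+ alone, with 1 female (replicate 1) and 1 male (replicate 2) in each group. KrasLA1, present in all 4 mice, is a latent allele that is switched on by chance recombination and is not limited to 1 cell type by a promoter or a Cre. Dicer1S2D changes Dicer1, the enzyme that cuts microRNA precursors, so that it mimics its phosphorylated form. A sample was 40 to 50 mg of frozen tumour, and the labels leave unstated from how many tumours it came.

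Alveolar type 1 cells are the thin, flat cells across which the lung exchanges gas. In the adult lung they are renewed from alveolar type 2 cells, the cuboidal cells that make surfactant. Lung adenocarcinomas can hold cells with features of either type. The transcription factor NKX2-1 and the YAP, TAZ and TEAD factors act in forming and keeping type 1 cells. Several of the 10 genes are also used elsewhere: Cav1 in endothelium, fat and fibroblasts, Pdpn in lymphatic endothelium, mesothelium and fibroblasts, and Aqp5 in secretory glands. A tumour sample mixes many cells, and fewer cells of a type cannot be told apart from less open chromatin in each cell.

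The deposited values are peak positions, given separately for every library. Each peak has a width but no height or read count, and the sequencing depth is unknown. The libraries held 50282 and 34767 peaks in KrasLA1;Dicer1S2D replicates 1 and 2, and 41621 and 44654 in KrasLA1 replicates 1 and 2, so the libraries with the most and the fewest peaks were both KrasLA1;Dicer1S2D. A region is called lost below if both KrasLA1 libraries and neither KrasLA1;Dicer1S2D library had a peak in it, and gained in the reverse case. These words name a pattern of calls and not a tested change. Unless called uncentred, log2 ratios below were taken after centring each library on its median. They can therefore differ from the ratio of the base pairs printed beside them.

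The start-site windows, looked at for every member but Rtkn2, differed widely in whether they held a peak, and 5 show the range. The sequences are the 250 bases before the RefSeq start site in GRCm38.p6 (whose chromosomes are those of mm10), 5′ to 3′ on the strand of the gene. Capitals mark bases inside the peaks of every library that had a peak in the window of 300 bases from 250 before to 50 after the start site. The windows are chr12:76324641-76324890 (plus strand) for Akap5, whose peaks came from KrasLA1 libraries only, and chr15:99590778-99591027 (plus) for Aqp5, with peaks in 3 libraries. Ager (chr17:34597600-34597849, plus) had peaks in 4 libraries, and Pdpn (chr4:143299565-143299814, minus) and Spock2 (chr10:60106007-60106256, plus) had none.
Akap5: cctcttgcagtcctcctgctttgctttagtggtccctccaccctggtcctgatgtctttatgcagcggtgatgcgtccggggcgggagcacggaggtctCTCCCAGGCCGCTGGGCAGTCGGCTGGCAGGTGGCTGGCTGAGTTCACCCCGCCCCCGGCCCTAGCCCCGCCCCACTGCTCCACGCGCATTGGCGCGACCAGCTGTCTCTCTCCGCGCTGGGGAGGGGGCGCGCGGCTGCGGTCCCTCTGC
Aqp5: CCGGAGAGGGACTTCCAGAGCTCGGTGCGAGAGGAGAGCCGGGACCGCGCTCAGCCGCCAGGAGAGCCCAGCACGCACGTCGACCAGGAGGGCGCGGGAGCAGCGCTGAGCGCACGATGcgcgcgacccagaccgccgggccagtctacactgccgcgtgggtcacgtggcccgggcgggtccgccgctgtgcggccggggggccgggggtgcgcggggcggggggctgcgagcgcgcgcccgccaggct
Ager: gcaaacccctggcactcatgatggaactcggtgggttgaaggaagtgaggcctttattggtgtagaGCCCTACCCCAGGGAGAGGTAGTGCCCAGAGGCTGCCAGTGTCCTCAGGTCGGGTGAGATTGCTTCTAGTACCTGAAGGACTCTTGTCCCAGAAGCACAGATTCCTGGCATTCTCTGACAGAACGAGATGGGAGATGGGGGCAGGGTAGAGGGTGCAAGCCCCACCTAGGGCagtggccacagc
Pdpn: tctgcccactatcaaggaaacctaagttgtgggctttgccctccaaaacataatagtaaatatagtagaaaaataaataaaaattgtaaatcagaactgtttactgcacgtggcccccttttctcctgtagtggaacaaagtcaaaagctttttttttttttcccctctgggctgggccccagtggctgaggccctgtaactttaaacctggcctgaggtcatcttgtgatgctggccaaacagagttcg
Spock2: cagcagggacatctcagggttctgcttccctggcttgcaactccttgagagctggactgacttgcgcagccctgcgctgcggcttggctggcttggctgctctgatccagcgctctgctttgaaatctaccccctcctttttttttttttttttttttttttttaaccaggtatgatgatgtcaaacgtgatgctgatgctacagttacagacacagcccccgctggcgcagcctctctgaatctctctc

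RefSeq start-site windows were found for 9 of the 10 genes, 11 windows in all, since Hopx and Cav1 have 2 each. Peaks of all 4 libraries lay in 7 of the 11 windows, those of Ager, Hopx, Cav1, Clic5 and Emp2. The Clic5 window lies inside the gene and not at its outer start. Over 20085 autosomal start-site windows, 47.5% had a peak in every library and 44.5% had none. The windows of Pdpn and Spock2 had 7 and 10 CpG dinucleotides, and that of Ager, with a peak in every tumour, had 4. Akap5 had 27 and Aqp5 46, against a median of 14 over all windows. Of the windows with more CpG than the median, 77.4% had a peak in all 4 libraries and 15.2% had none. Akap5 and Aqp5, the 2 members whose windows had a peak in some libraries only, were thus on the CpG-rich side.

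Short motifs of factors known from the lung were counted in the same windows, on both strands. The letters GGGCGG, bound by KLF and SP factors, were in 6 of 11 windows (47% of all windows). Akap5 had 3 of them, all before the start site, and Aqp5 had 3. CTCAAG, of the kind NKX2-1 binds, was in 3 of 11, both windows of Hopx and that of Spock2 (15% of all windows). TGTTTAC, of the FOXA kind, was in 1, that of Pdpn (3.04%). TGANTCA, of the AP-1 kind, was in 0 of 11 (7.06% of all windows). GGAATG, of the TEAD kind, was in 0 of 11 (13.4%), and AGATAA, of the GATA kind, also in 0 of 11 (9.57%). These counts describe letters in short windows and say nothing of binding.

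Most regions at these 10 genes had a peak in all 4 tumours. Of the 56 regions, 32 (57.1%) had a peak in every library, against 43.5% of all 60713 autosomal regions, a difference that was not tested. For 19 further type 1 genes, described below, the share was 48.4% (59 of 122 regions). Of the 56 regions, 6 overlapped a gene other than the member. Besides the 32, 2 regions of the members were called in 3 libraries, 10 in 2 and 12 in 1. KrasLA1;Dicer1S2D replicates 1 and 2 had peaks in 46 and 34 of the 56 regions, and KrasLA1 replicates 1 and 2 in 41 and 45. The mean was 40 ± 8.49 regions in KrasLA1;Dicer1S2D tumours and 43 ± 2.83 in KrasLA1 tumours (SD, n = 2 each), so the groups overlapped. The difference of -3 regions became 3 without KrasLA1;Dicer1S2D replicate 2, which had the fewest peaks of the study, and -9 without KrasLA1;Dicer1S2D replicate 1, which had the most. Regions called in 4 libraries had a median width of 784.5 bp and those called in 1 library of 266.5 bp, much as over all regions (789.5 and 253 bp). These widths run over the peaks of all libraries in a region, so regions called in more libraries are wider in part by construction. Of the 12 regions called in 1 library, 5 and 0 came from KrasLA1;Dicer1S2D replicates 1 and 2, and 3 and 4 from KrasLA1 replicates 1 and 2.

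**Figure D1:**
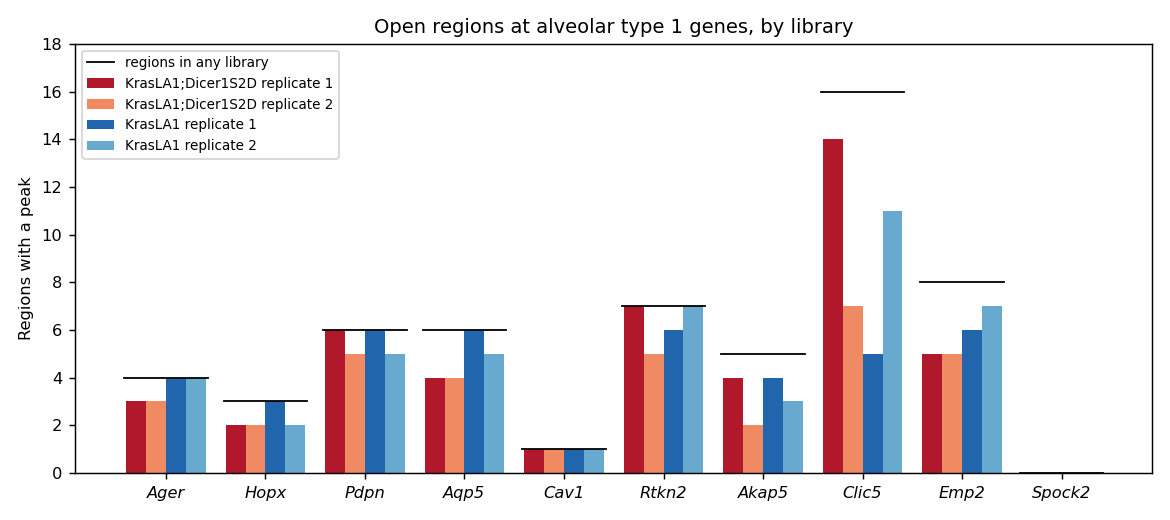
Number of regions with a peak (vertical axis) at each of the 10 genes (horizontal axis), 1 bar per library, with a black line at the number of regions called in any library. Clic5 has the most regions, 16, and the widest range over libraries, 5 to 14, and Spock2 has 0.

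Counted by genotype, 3 regions at 3 genes were lost and 1 at 1 gene was gained. The lost regions lay near Ager, in Aqp5 and at the start site of Akap5, and the gained region lay in Clic5. Lost regions were 5.36% of the 56, against 1.42% of all autosomal regions, and gained regions 1.79%, against 0.596%. By gene, 3 of the 9 members with a region had a lost one (4.87% of all 15882 autosomal protein-coding genes with a region) and 1 had a gained one (1.78%). The members had a median of 6 regions each and all genes of 3, and more regions give more chances of either call. These shares are not tested, since presence in 2 against 2 libraries allows no exact p below 0.33. When the same number of widest peaks was used in each library, 1 region was lost (Ager) and 1 gained (Clic5), against 1.30% and 1.18% of all regions. With the widest 75% of peaks 1 was lost (Ager) and 0 gained, against 1.49% and 0.676%. Without KrasLA1 replicate 1 or 2, so that 1 KrasLA1 library decided, 7 or 6 of the 56 regions were lost (12.5% or 10.7%), against 10.3% or 7.21% of all regions. Without KrasLA1;Dicer1S2D replicate 2, 6 were gained (10.7%), against 12.4% of all regions, and without KrasLA1 replicate 2, 2 were gained (3.57%), against 4.51%. The higher counts with a library left out thus went with higher shares over all regions. Of the 6 peaks in lost regions, 5 were narrower than the median peak of their library.

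**Figure D2:**
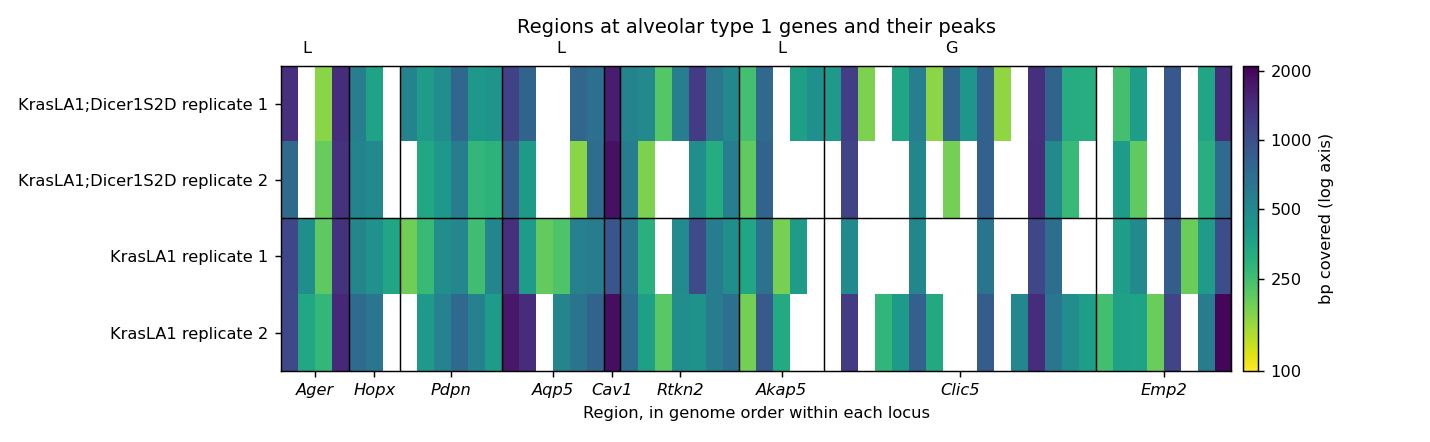
Each column is 1 of the 56 regions, in genome order within its gene, each row is a library, and colour gives the base pairs covered by that library's peaks on a log scale, with white for no peak. L and G above the columns mark the 3 lost regions and the 1 gained region, and the row of KrasLA1;Dicer1S2D replicate 2, with 34 regions, has the most white.

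Akap5 (chr12:76324617-76334517) encodes an anchoring protein that holds protein kinase A and calcineurin near the membrane, and it held the lost region at a start site. The region, chr12:76324733-76325067, covered 0 bp in both KrasLA1;Dicer1S2D tumours, against 187 and 328 bp in KrasLA1 replicates 1 and 2, and both peaks shared 180 bp. The part shared by both peaks is the stretch in capitals in the Akap5 sequence above, continued past the start site. No other window of a member had this pattern, and over all start-site windows 100 had it (0.498%). It was not lost under equal numbers of peaks, with the widest 75% of peaks or with peaks of at least 200 bp. The 2 other regions near the gene with peaks in every library lay in the neighbouring gene Mthfd1. A region of 396 bp beyond the gene had peaks in both replicates 1 (371 bp in KrasLA1;Dicer1S2D, 396 bp in KrasLA1) and in neither replicate 2, and a last one of 453 bp had a peak in KrasLA1;Dicer1S2D replicate 1 alone.

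Aqp5 (chr15:99591028-99594829) encodes the water channel of the apical membrane of type 1 cells. Its lost region, chr15:99592048-99592573, lay inside the gene and 1020 bp after the start site, with 0 bp in both KrasLA1;Dicer1S2D tumours and 230 and 526 bp in KrasLA1 replicates 1 and 2. A further region of 209 bp, 137 bp after the start site, had a peak in KrasLA1 replicate 1 alone, so 0 peaks of KrasLA1;Dicer1S2D tumours lay within the gene. The region before the start site was called in all 4 libraries, but with different parts of it. The stretch nearest the gene was covered in the start-site window by 151 and 0 bp in KrasLA1;Dicer1S2D replicates 1 and 2, and by 149 and 119 bp in KrasLA1 replicates 1 and 2. KrasLA1;Dicer1S2D replicate 2 had its peak farther from the gene, from 99589483 to 99589881. The groups overlapped there, since KrasLA1;Dicer1S2D replicate 1 had the stretch as both KrasLA1 tumours did. A region 5648 bp before the gene, which also overlaps Aqp2, had narrower cover in both KrasLA1;Dicer1S2D tumours (1161 and 852 bp) than in both KrasLA1 tumours (1387 and 1722 bp), a log2 ratio of -0.47 ± 0.23 (SE, limma, adjusted p = 0.999). Of all regions called in every library, 27.2% were narrower in both KrasLA1;Dicer1S2D tumours.

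Ager (chr17:34597460-34600937) encodes the receptor for advanced glycation end products, which is made at high levels in type 1 cells. Its start-site window had a peak in every tumour, with 172 and 202 bp covered in KrasLA1;Dicer1S2D replicates 1 and 2 and 214 and 279 bp in KrasLA1 replicates 1 and 2. Both KrasLA1;Dicer1S2D widths were below both KrasLA1 widths, and the difference was within its error (log2 ratio -0.23 ± 0.23 SE, limma, adjusted p = 0.999). Such a gap was seen at 27.2% of all regions called in every library. The peak of KrasLA1;Dicer1S2D replicate 1 ended at 34597837, before the start site at 34597850, and the other 3 reached over it. The lost region, chr17:34591648-34592427, lay 5032 bp before the gene and overlapped Gpsm3 and Pbx2, so it is not Ager's alone. Its peaks, 460 bp in KrasLA1 replicate 1 and 340 bp in KrasLA1 replicate 2, shared 20 bp of 780, so they lay side by side more than on the same bases. It was not lost when 50% of the narrower peak had to be shared, and was lost under equal numbers of peaks. The other 2 regions, in Notch4 and at Rnf5 and Agpat1, were called in all 4 tumours.

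Clic5 (chr17:44134762-44280169) encodes an intracellular chloride channel protein that links the membrane to the actin cytoskeleton, and it is the longest of the 10 genes, 145408 bp. It had 16 regions, of which KrasLA1;Dicer1S2D replicates 1 and 2 had 14 and 7, and KrasLA1 replicates 1 and 2 had 5 and 11. The groups overlapped, and 6 of the 16 regions were called in 1 library. The gained region, chr17:44193012-44193785, lay in the gene 4440 bp after the RefSeq start site, with 774 and 188 bp in KrasLA1;Dicer1S2D replicates 1 and 2 and 0 bp in both KrasLA1 tumours. That start site, at 44188572, lies inside the gene, and the outer start of the gene at 44134762 had no window here. The peak of KrasLA1;Dicer1S2D replicate 2 was under 200 bp, and the region was not gained when such peaks were left out. The difference of 2.5 regions between the group means (10.5 in KrasLA1;Dicer1S2D, 8 in KrasLA1, exact two-sided permutation test, p = 0.667) turned to -1 if KrasLA1;Dicer1S2D replicate 1 was left out and to -0.5 if KrasLA1 replicate 1 was. Among the 5 regions called in every library, the highest width ratio was at chr17:44151295-44152543, inside the gene, with 1191 and 1123 bp in KrasLA1;Dicer1S2D and 493 and 1241 bp in KrasLA1 replicates 1 and 2 (log2 ratio 0.73 ± 0.39 SE, limma, adjusted p = 0.999). There KrasLA1 replicate 1 was low and the groups overlapped.

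**Figure D3:**
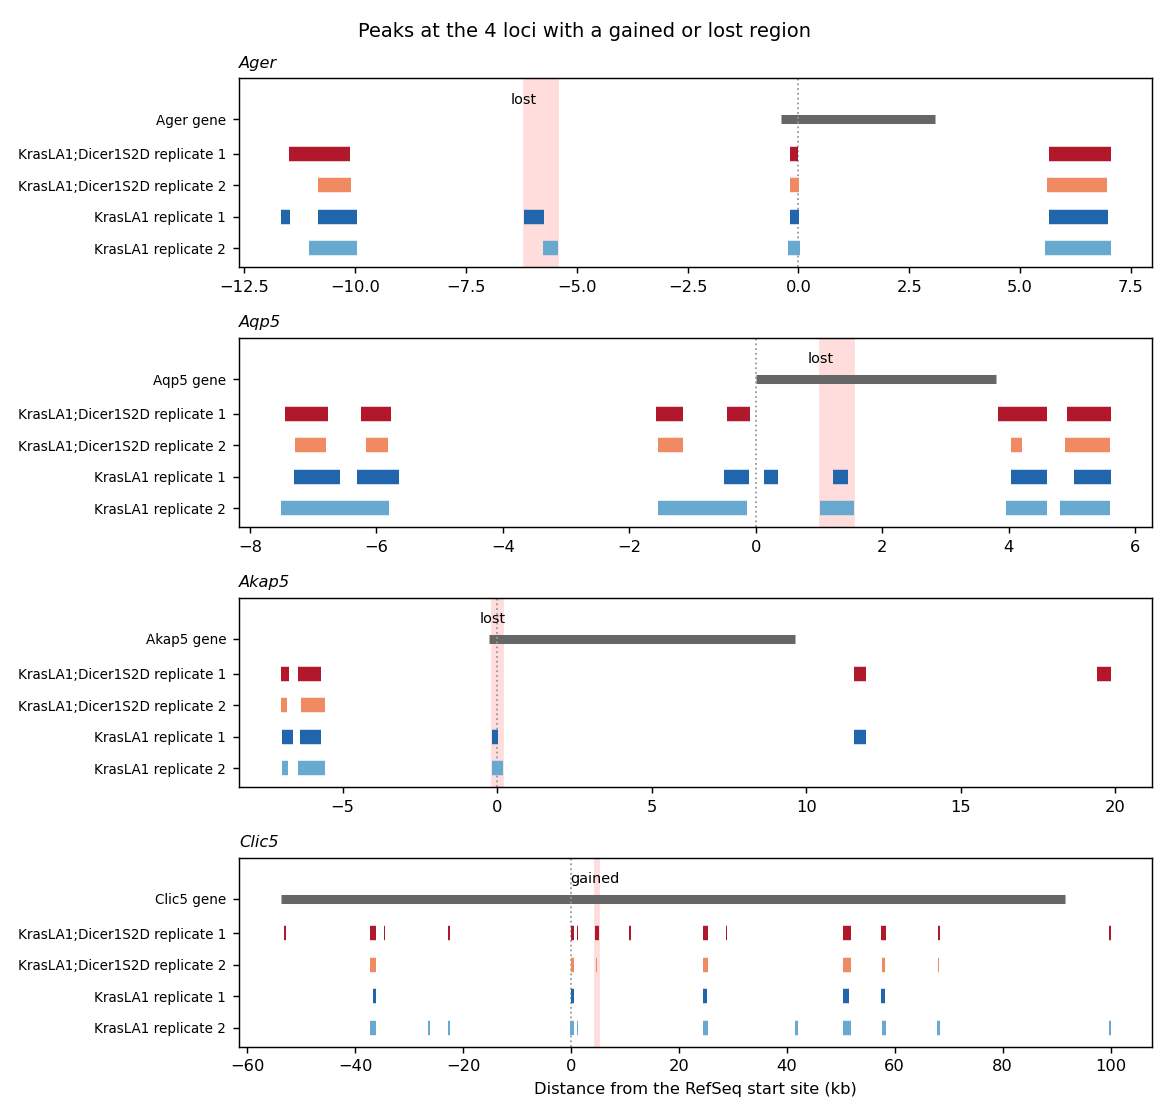
Peaks of each library (coloured bars) at Ager, Aqp5, Akap5 and Clic5, with the gene as a grey bar and the distance from the RefSeq start site (dotted line) in kb on the horizontal axis, the direction of all 4 genes being left to right. Shaded stretches are the 3 lost regions and the 1 gained region, and the Akap5 one lies on the start site.

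Hopx (chr5:77086986-77115123) encodes a small homeodomain protein that binds no DNA itself and marks type 1 cells among epithelia of the lung. Both of its start sites lay in regions open in all 4 tumours. At the outer start site KrasLA1;Dicer1S2D replicates 1 and 2 had 358 and 495 bp, and KrasLA1 replicates 1 and 2 had 449 and 637 bp. At the inner start site the values were 570 and 532 bp in KrasLA1;Dicer1S2D and 524 and 727 bp in KrasLA1. The groups overlapped at each. The third region, 4729 bp before the gene, had a peak of 349 bp in KrasLA1 replicate 1 alone. Peaks covered 928 and 1027 bp of the locus in KrasLA1;Dicer1S2D replicates 1 and 2, below the 1322 and 1364 bp in KrasLA1 replicates 1 and 2. Such a gap, in this direction, was seen at 27.9% of all genes with a region. Relative to all genes this was a log2 ratio of -0.18 ± 0.20 (SE, limma, adjusted p = 1), within its error. It was -0.03 without replicate 1 and -0.32 without replicate 2 of KrasLA1;Dicer1S2D, -0.11 without KrasLA1 replicate 1 and -0.05 over the gene body.

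Pdpn (chr4:143267409-143299564) encodes podoplanin, a mucin-like glycoprotein of the apical membrane. It had open regions in every tumour but none at its start site. The 4 regions within the gene and 1 lying before it had peaks in all 4 libraries. The region before the gene, 1573 bp from the start site, had 434 and 293 bp in KrasLA1;Dicer1S2D and 521 and 395 bp in KrasLA1 replicates 1 and 2. The other region, 5485 bp beyond the gene, had peaks in both replicates 1, 530 bp in KrasLA1;Dicer1S2D and 193 bp in KrasLA1, and in neither replicate 2.

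Cav1 (chr6:17306335-17341328) encodes caveolin-1, the coat protein of caveolae, and had 1 region, which spanned both of its start sites in all 4 tumours. Peaks covered 1650 and 1827 bp of it in KrasLA1;Dicer1S2D replicates 1 and 2 and 929 and 1878 bp in KrasLA1 replicates 1 and 2. KrasLA1 replicate 1 was low, and the groups overlapped (log2 ratio 0.56 ± 0.32 SE, limma, adjusted p = 0.999). In KrasLA1 replicate 1 the cover fell into peaks of 357 and 572 bp, and in KrasLA1;Dicer1S2D replicate 1 into peaks of 774 and 876 bp. The other libraries had 1 peak each across both start sites.

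Emp2 (chr16:10281749-10313968) encodes a tetraspan membrane protein that acts on integrin and caveolin levels. It had 8 regions, 5 of them called in all 4 tumours and 3 called in 1 KrasLA1 tumour each. KrasLA1;Dicer1S2D tumours therefore had 5 regions each, and KrasLA1 replicates 1 and 2 had 6 and 7 (exact two-sided permutation test, p = 0.33, the lowest it allows). Fewer regions in both KrasLA1;Dicer1S2D tumours were seen at 3.43% of all genes with a region, which had a median of 3 regions. The region over the start site, the widest of the 56 at 2327 bp, had 1406 and 726 bp in KrasLA1;Dicer1S2D and 1018 and 2013 bp in KrasLA1 replicates 1 and 2, with overlapping groups. A region in the gene, 7321 bp after the start, had 348 and 306 bp in KrasLA1;Dicer1S2D and 393 and 585 bp in KrasLA1 (log2 ratio -0.39 ± 0.23 SE, limma, adjusted p = 0.999), without overlap. Of all regions called in every library, 27.2% were narrower in this way. Over the locus peaks covered 3296 and 2541 bp in KrasLA1;Dicer1S2D and 3338 and 4879 bp in KrasLA1. Covered length was lower in this way at 27.9% of all genes with a region.

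Rtkn2 (chr10:67979566-68058429) encodes rhotekin-2. All 7 of its regions overlapped the gene, and 5 were called in every tumour. KrasLA1;Dicer1S2D replicates 1 and 2 had 7 and 5 of them and KrasLA1 replicates 1 and 2 had 6 and 7. KrasLA1;Dicer1S2D replicate 2 lacked a region of 726 bp (chr10:67997790-67998515) that had 571 bp in KrasLA1;Dicer1S2D replicate 1 and 483 and 473 bp in KrasLA1 replicates 1 and 2. The widest, of 1242 bp, had 1242 and 468 bp in KrasLA1;Dicer1S2D and 1033 and 441 bp in KrasLA1, wider in both replicates 1 than in both replicates 2.

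Spock2 (chr10:60106257-60135198) encodes testican-2, a proteoglycan of the extracellular matrix, and was the 1 member with no region within 10 kb in any tumour. Of 20665 autosomal protein-coding genes, 4783 (23.1%) had none. The nearest region lay 12610 bp from the gene, just outside the limit, and had 184 and 529 bp in KrasLA1 replicates 1 and 2 and 0 bp in both KrasLA1;Dicer1S2D tumours. It would be a lost region at 25 kb. Just inside the limit, the region farthest from its gene was the one 9781 bp from Akap5, called in 1 library.

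No difference in width or covered length between genotypes passed the test at any member. Width here is the base pairs that a library's peaks covered in a region, summed where it had several peaks. Over the 32 regions called in all 4 libraries, 16 were relatively wider and 16 relatively narrower in KrasLA1;Dicer1S2D tumours, with a median log2 ratio of 0.00, against 0.04 over all 26402 such regions. The ratios were from -0.57 to 0.73. In 4 of the 32, at Ager, Aqp5, Rtkn2 and Emp2, both KrasLA1;Dicer1S2D widths were below both KrasLA1 widths, and in 0 both were above. Over all 26402 shared regions 27.2% were narrower and 3.66% wider in this way, so the 4 are no more than the background. Uncentred widths were lower in KrasLA1;Dicer1S2D tumours over all regions (median log2 ratio -0.12), and centring on each library's median removes this. limma, with Benjamini-Hochberg adjustment, called 0 of the 26402 regions (0%, at a threshold of 0.05 on the adjusted p). Unadjusted, 770 of the 26402 regions were under 0.05, and 0 of the 32 at members. So few regions were under 0.05 that 0 of 32 does not set the members apart. For base pairs covered per gene it called 0 of 15882 genes (0%), with 283 at an unadjusted p under 0.05 and 0 of the 9 members. Covered length was lower in both KrasLA1;Dicer1S2D tumours than in both KrasLA1 tumours at 3 of 9 members (Ager, Hopx and Emp2, against 27.9% of all genes) and higher in both at 0 (1.95%). The lowest p of a member was 0.143, at Aqp5 (log2 ratio -0.40 ± 0.23 SE, limma, adjusted p = 1), where KrasLA1;Dicer1S2D replicates 1 and 2 had 3401 and 2130 bp and KrasLA1 replicates 1 and 2 had 3364 and 5118 bp. This ratio was -0.21 without KrasLA1;Dicer1S2D replicate 2, -0.22 without KrasLA1 replicate 2 and -0.86 over the gene body. In the number of regions per gene, Ager, Aqp5 and Emp2 had fewer in both KrasLA1;Dicer1S2D tumours than in both KrasLA1 tumours (exact two-sided permutation test, p = 0.33 for each). This was so at 3.43% of all genes with a region, and the reverse, seen at 0 members, at 0.995%. All these genes had a median of 3 regions, below that of the members. The exact p of the other 6 genes was 0.667 or 1.

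**Figure D4:**
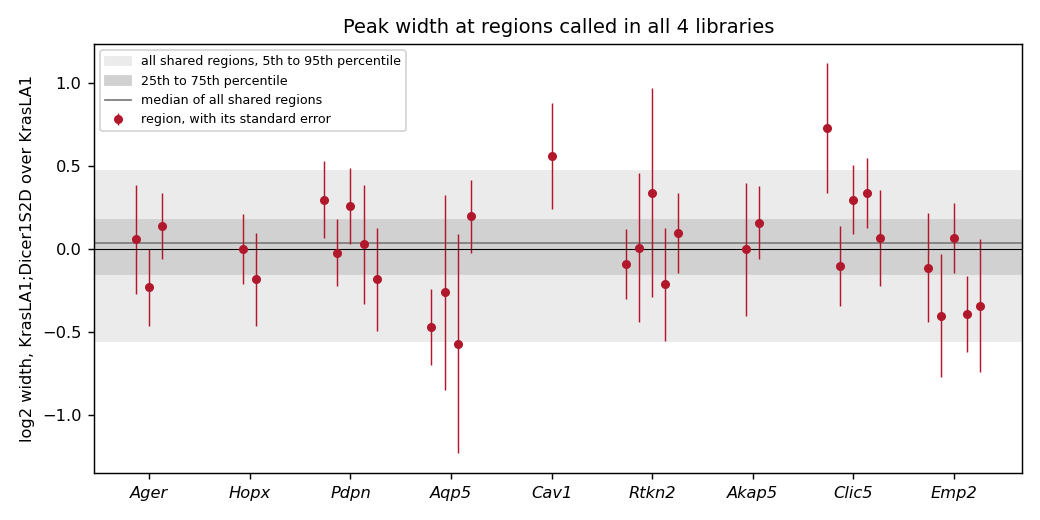
log2 ratio of peak width, KrasLA1;Dicer1S2D over KrasLA1, centred on each library's median (vertical axis), for the 32 regions called in all 4 libraries, by gene, where points are regions and bars are standard errors from limma. Peak width is the base pairs covered by all peaks of a library in the region. Grey bands give the 5th to 95th and the 25th to 75th percentile of all 26402 shared regions, and ratios of the members run from -0.57 (Aqp5) to 0.73 (Clic5).

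Further genes used by type 1 cells, and factors that act in them, were counted in the same way. Of 19 further type 1 genes with a region, Scnn1g, a subunit of the epithelial sodium channel, had a lost region and 0 had a gained one (4.87% and 1.78% of all genes). By region, 1 of their 122 was lost, against 1.42% of all autosomal regions. All genes had a median of 3 regions each, so these 19 had more chances of either call. Without KrasLA1;Dicer1S2D replicate 1, KrasLA1 replicate 1 or KrasLA1 replicate 2, 10, 11 or 6 of the 19 had a lost region. The share over all genes was then 19%, 25.6% or 17.5%, lower than in this list, which was not tested. With the widest 75% or equal numbers of peaks 0 of the 19 had one (4.38% or 3.74% of all genes). Their 122 regions were called in 78.7% and 58.2% in KrasLA1;Dicer1S2D replicates 1 and 2 and in 64.8% and 84.4% in KrasLA1 replicates 1 and 2. Of 11 genes of factors with a region, 4 had a lost one and 0 a gained one (4.87% and 1.78% of all genes). These 11 genes had 82 regions, while all genes had a median of 3 each, and more regions give more chances of either call. By region, 4 of the 82 were lost, against 1.42% of all autosomal regions, which was not tested. The 4, named here after their calls were seen, were Nkx2-1, Tead1, Tead4 and Wwtr1, which encodes TAZ, the partner of TEAD factors. The lost regions lay within Tead1 (chr7:112813618-112814127), Tead4 (chr6:128234307-128234646) and Wwtr1 (chr3:57535640-57536175), and 6169 bp from Nkx2-1 (chr12:56525423-56525765). KrasLA1 replicates 1 and 2 had 212 and 510 bp at Tead1, 177 and 327 bp at Tead4 and 264 and 400 bp at Wwtr1. At Nkx2-1 the peaks covered 311 and 325 bp, and all 4 regions had 0 bp in both KrasLA1;Dicer1S2D tumours. With equal numbers of peaks Nkx2-1 and Wwtr1 had a lost region, and with the widest 75% of peaks 0 of the factors did. Without KrasLA1 replicate 1 there were 8 such factor genes (25.6% of all genes).

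Loci of other cells give the setting. Of all autosomal regions, 78.8% and 54.9% were called in KrasLA1;Dicer1S2D replicates 1 and 2 and 66% and 71.8% in KrasLA1 replicates 1 and 2. Regions of 15 type 2 genes were called in 75.6% and 61.1% in KrasLA1;Dicer1S2D replicates 1 and 2 and in 54.4% and 88.9% in KrasLA1 replicates 1 and 2. For type 1 members the shares were 82.1% and 60.7% in KrasLA1;Dicer1S2D and 73.2% and 80.4% in KrasLA1, in the order of libraries that all regions had. Of the type 2 genes 1 had a lost region and 0 a gained one, and of 11 airway genes 0 had a lost and 1 a gained one. Of 5 endothelial markers with a region, 2 had a lost one, of 5 fibroblast and smooth muscle markers 1, of 5 myeloid markers 1, and of 3 lymphatic, 3 lymphocyte and 2 mesothelial markers 0 (4.87% of all genes). In these marker lists, airway genes not among them, 0 genes had a gained region (1.78% of all genes). Endothelial regions, 25 in all, were called 17 and 14 times in KrasLA1;Dicer1S2D replicates 1 and 2 and 21 and 19 times in KrasLA1 replicates 1 and 2. For the 16 fibroblast and smooth muscle regions the counts were 10 and 5 in KrasLA1;Dicer1S2D and 10 and 7 in KrasLA1. For the 16 myeloid regions they were 11 and 9 in KrasLA1;Dicer1S2D and 12 and 13 in KrasLA1. In the endothelial and myeloid lists both KrasLA1;Dicer1S2D counts were below both KrasLA1 counts. The type 2, airway, fibroblast and smooth muscle, lymphatic, lymphocyte and mesothelial lists showed no such gap, and over all regions the groups overlapped. How often lists this small differ in this way was not tested. For the 7 lymphatic regions they were 5 and 3 in KrasLA1;Dicer1S2D and 5 and 5 in KrasLA1, and for the 6 lymphocyte regions 4 and 2 in KrasLA1;Dicer1S2D and 4 and 5 in KrasLA1. Mesothelial markers had 1 and 0 of 3 regions in KrasLA1;Dicer1S2D replicates 1 and 2 and 1 in each KrasLA1 tumour. The part of these other cells in the calls at type 1 genes was not tested. Housekeeping loci had 13 and 12 of 14 regions in KrasLA1;Dicer1S2D and 14 and 12 in KrasLA1.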

How the data were processed

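ATAC-seq peaks of 4 lung tumours were used, grouped by the labels. The deposited table holds intervals in mm10, per the file headers: 1 track of peaks per library and 1 of merged regions, with no score per interval. Library names were matched to samples by the mouse number in the title, and 0 columns belonged to other samples. Tools listed in the submitters' processing notes are BWA 0.7.12, MACS3 3.0.0 and deepTools 3.5.1. Thresholds, filters, read shifts and depth are not stated there. Merging peaks that overlap by 1 bp gave the 61972 deposited regions. An unknown threshold and unequal depth can make a region look absent, and intervals hold no estimate of counting error.

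Genes and start sites came from RefSeq for GRCm38.p6. Autosomal regions were used. Base pairs covered by peaks were tested with limma 3.58.1 in R 4.3.3, two-sided, on log2 values centred on the median of each library (for genes, after adding 500 bp), with Benjamini-Hochberg adjustment over the whole table. Regions per gene had an exact permutation test. All members are named. Further genes are named if they had a gained or lost region, and the 4 factor genes lie outside this rule. Members and lists were chosen with earlier results of these data known, and the motifs after the calls were seen. With 2 mice per group, limma p-values set a difference against the spread between these mice, moderated by the spread over all regions or genes. Python 3.11.15, numpy 2.4.6 and matplotlib 3.10.9 were used. The steps were run on simulated data, where the planted width changes were larger than any width ratio of the members. How small a change limma could find with 2 mice per group was not measured. Alternatives varied merging, overlap, peak numbers, width, windows, pseudocounts and centring, added a replicate block, or left out single libraries. Those for the factor and further type 1 lists were added after seeing the data.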

Additional observations from a re-analysis of the deposited data

How the results depend on the processing

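The 3 lost regions, at 3 genes, became 1 region at 1 gene when peaks were cut to the widest 75% or to equal numbers. The 1 gained region, at 1 gene, became 0 with the widest 75% of peaks and with peaks of at least 200 bp. With single libraries left out there were 3 to 7 lost regions at 3 to 5 genes (2.59% to 10.3% of all regions) and 1 to 6 gained regions at 1 to 2 genes (1.78% to 12.4%). The highest lost count came without KrasLA1 replicate 1 and the highest gained count without KrasLA1;Dicer1S2D replicate 2. limma called 0 regions and 0 genes under every alternative, the replicate block included. Replicate numbers also stand for sex. Same-numbered libraries deviated together (correlation 0.12 for width and 0.178 for covered length), which with 2 pairs does not show that they are paired. Covered length changed sign without centring at Pdpn (-0.01) and Akap5 (-0.10), and in the gene body at Akap5 (-0.48). With single libraries left out, its log2 ratio ran from -0.04 to 0.30 at Pdpn, -0.37 to 0.29 at Rtkn2, -0.17 to 0.25 at Akap5 and 0.00 to 0.81 at Clic5. The difference in regions called ran from -1.5 to 0.5 at Rtkn2 and Akap5 and from -1 to 6 at Clic5 with single libraries left out, and for all members from -9 to 3 around -3 (-0.5 with equal numbers of peaks). Without KrasLA1 replicate 1 the Rtkn2 ratio was 0.05, and without KrasLA1 replicate 2 the Akap5 ratio was -0.12. The cause of these changes was not tested. The unknown depth limits every statement that a region lacks a peak.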
